A study of Mus musculus with 7 samples.

Results

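The 37 genes described here mark astrocytes, at rest or in a reactive state, in the brain cortex of APP/PS1 mice fed a ketogenic diet (KD) or a control diet (CD). They were picked by symbol as known astrocyte genes. The rule uses no measured value, but the list was drawn up with earlier results of these mice known. All 37 were found among the 23413 gene symbols of the count files. Of these, 36 had enough counts to be tested and 1, Lcn2, did not. Cortex RNA came from 4 CD and 3 KD mice of 13 months, 7 months after the diets began. All 7 mice carried the APPswe and PSEN1dE9 transgenes (B6.Cg-Tg(APPswe,PSEN1dE9)85Dbo/Mmjax, a line in which the mouse prion promoter drives both), and no wild-type cortex was sequenced, so the levels below are not set against a brain without amyloid. CD, named SD in the sample labels, gave 74% of its energy as carbohydrate, 10% as protein and 16% as fat, and KD gave under 0.5% as carbohydrate, 10% as protein and 90% as fat. Mice were housed singly and both diets were given in equal calories.

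Astrocytes are the glial cells that wrap synapses and blood vessels. They clear glutamate and potassium released by neurons, turn glutamate into glutamine, share ions and metabolites through gap junctions and move water at their endfeet on vessels. Around amyloid plaques they become reactive: their intermediate filament proteins rise and cytokine signals passed through gp130 receptors and the transcription factor STAT3 change which genes they use. They also oxidise fatty acids and can make ketone bodies, which makes them a cell type of interest in a diet that replaces glucose with ketones.

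The libraries held 22272883 to 36614954 counts, and levels are given as CPM, counts scaled by the total of their library. Cortex was the labelled tissue. Neuronal markers summed to 6321 to 8402 CPM and the 37 astrocyte genes to 9624 to 13135 CPM. These sums show neurons and astrocytes and do not by themselves identify the brain region. Some libraries stood apart. Olfactory bulb markers summed to 87.0 CPM in CD replicate 4 and 64.0 CPM in KD replicate 3, against 6.89 to 12.9 CPM in the other 5 libraries. In KD replicate 3 most of this sum was Trh (44.1 CPM) and Cdhr1 (12.9 CPM). Eomes, Doc2g and Th, at 7.76, 13.6 and 10.6 CPM in CD replicate 4, were at 0.404, 2.11 and 0.943 CPM in KD replicate 3. The latter values lay within the range of the other 5 libraries. By their sums, CD replicate 4 and KD replicate 3 are called the libraries with olfactory bulb markers below. Meningeal fibroblast markers were also highest in these libraries, at 440 and 201 CPM against 65.4 to 130 CPM. Oligodendrocyte markers summed to 1227 CPM in CD replicate 3 and 1260 CPM in KD replicate 3, against 2342 to 4652 CPM elsewhere. Ependyma and choroid plexus markers summed to 457 CPM in CD replicate 1 against 14.7 to 77.6 CPM elsewhere, and microglia markers ran from 506 CPM in CD replicate 4 to 987 CPM in KD replicate 1, with 11 of 13 fitted higher in KD. The libraries also differed by sex: Xist was at 242 to 526 CPM in CD replicates 1 and 2 and KD replicates 1 and 2, and the Y-linked gene Ddx3y at 301 to 346 CPM in CD replicates 3 and 4 and KD replicate 3. The study used both sexes, and the labels give none for single mice. In the GENCODE annotation 14 of the 37 genes overlap another gene, for example Slc1a2 with an antisense gene and S100b with Dip2a on the other strand, and the strand setting of the counting is not stated, so reads may be shared there. Because the tissue was bulk cortex, fewer astrocytes and less RNA per astrocyte cannot be told apart in any value below. The p-values set a diet difference against the spread between these 7 mice.

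The astrocyte genes spanned a wide range of levels, here given in CPM per kilobase of annotated exon so that genes can be compared. Sparcl1, a secreted protein that promotes synapse formation, was at a mean of 799 over the 7 libraries. Glul, glutamine synthetase, followed at 693, and Slc1a2, the main glutamate transporter of the adult cortex, at 315. Slc1a2, Sparcl1 and Glul together held 64.1% to 71.6% of the summed CPM of the 37 genes, so that this sum mostly followed 3 genes. The classic reactive marker Gfap came seventh, at 77.3. At the other end stood Osmr at 2.36, Cbs at 2.20, Cd44 at 1.58 and Lcn2 at 0.335.

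**Figure D1:**
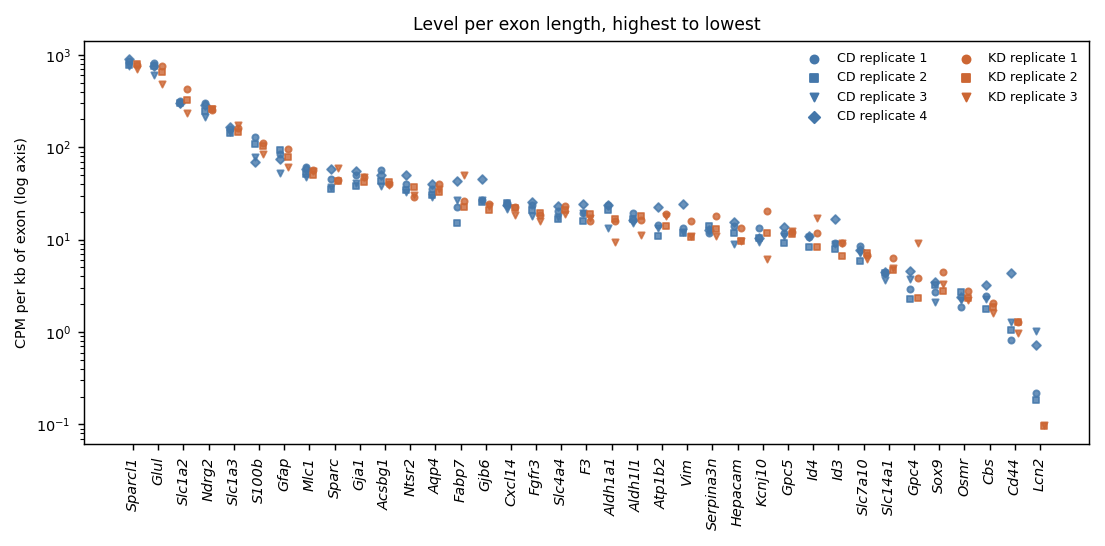
Level of each of the 37 astrocyte genes in CPM per kilobase of exon (log axis), ordered by the mean of the 7 libraries; blue marks are the 4 CD and orange marks the 3 KD libraries. Means run from 799 for Sparcl1 to 0.335 for Lcn2, KD replicate 1 of Lcn2 is at 0 and not drawn, and for most genes the marks of both diets lie among each other.

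The diet comparison asked whether these genes differed between KD and CD cortex. By edgeR's quasi-likelihood test none of the 36 tested astrocyte genes had a Benjamini-Hochberg adjusted p under 0.05, where 0% of all 15881 tested genes did. Their adjusted p-values ran from 0.979 to 0.998, so that no difference given below passed the test. None reached the raw p of 0.01 that the study used as its threshold, which 0.321% of all genes did. The study, which does not name its edgeR test, reported more genes at that threshold than any fit here with all libraries and no covariate. The likelihood-ratio test gave 103 and DESeq2 120, against 51 by the quasi-likelihood test used below. A raw p under 0.05 was found for 2 of 36 genes, Slc14a1 and Gjb6, or 5.56%, against 3.19% of all genes. Slc14a1 was the 1 gene higher in KD (1.66% of all genes) and Gjb6 the 1 gene lower (1.52% of all genes). These were also the 2 of 36 genes whose KD and CD values did not overlap (4.2% of all genes). The fitted difference was above 0 for 18 genes and below 0 for 18, and 49% of all genes were above 0. The median log2 fold change was -0.00081 for the astrocyte genes and -0.0033 for all genes. The summed level of the 37 genes was 11507 ± 935 CPM in CD (SD, n = 4) and 11386 ± 1755 CPM in KD (SD, n = 3). For 12 genes the 95% interval of the log2 fold change lay inside -0.5 to 0.5, and for 31 inside -1 to 1, so that for the other genes larger changes are not excluded. When each library was left out in turn, 23 of the 36 genes kept their direction in every fit and 13 changed it in at least 1 (Gfap, Serpina3n, Cd44, Osmr, Slc1a2, Gja1, Kcnj10, Mlc1, Aldh1l1, Gpc4, S100b, Ndrg2 and Fabp7). The median biological coefficient of variation was 17.9% for the astrocyte genes and 17.5% for all genes.

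**Figure D2:**
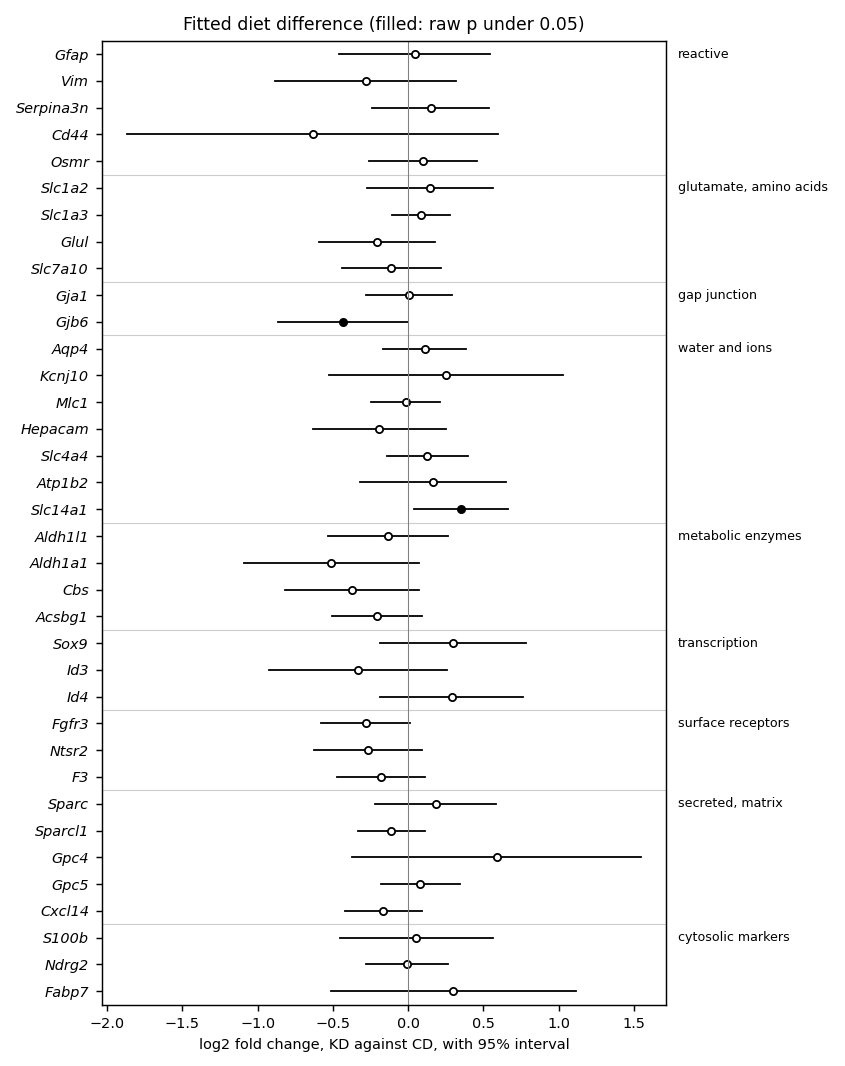
Fitted log2 fold change of KD against CD for the 36 tested astrocyte genes, grouped by role, with the 95% interval of edgeR's quasi-likelihood fit as a line and genes with a raw p under 0.05 as filled points. Slc14a1 at 0.35 and Gjb6 at -0.43 are the filled points, and the intervals of the other 34 genes include 0.

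The reactive group holds 6 genes, the intermediate filament genes Gfap and Vim, the protease inhibitor Serpina3n, the hyaluronan receptor Cd44, the oncostatin M receptor Osmr, which signals through gp130, and Lcn2, a secreted lipocalin of inflamed tissue. Gfap was at 344, 383, 213 and 306 CPM in CD and at 390, 316 and 251 CPM in KD. The ranges overlapped, with the lowest value in CD replicate 3 and the highest in KD replicate 1. Gfap differed by 0.04 on the log2 scale (SE 0.22, 95% interval -0.46 to 0.55), with means of 312 ± 72.8 CPM in CD (SD, n = 4) and 319 ± 69.6 CPM in KD (SD, n = 3). The difference was -0.13 without KD replicate 1 and 0.20 without KD replicate 3. The gene lies on the minus strand of chromosome 11, from 102887336 to 102900912 in mm10.

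The promoters of Gfap and Lcn2 are shown because both genes are known targets of cytokine signalling in astrocytes, and they stand at opposite ends of the reactive group in level. Both windows run from 250 bases before to 50 bases after the start site annotated by RefSeq (build GRCm38.p6), 5′ to 3′ on the minus strand, chr11:102897151-102897450 for Gfap and chr2:32387690-32387989 for Lcn2. Capitals mark a match to the STAT motif TTCNNNGAA, which was searched on both strands together with an NF-kB motif.
Gfap: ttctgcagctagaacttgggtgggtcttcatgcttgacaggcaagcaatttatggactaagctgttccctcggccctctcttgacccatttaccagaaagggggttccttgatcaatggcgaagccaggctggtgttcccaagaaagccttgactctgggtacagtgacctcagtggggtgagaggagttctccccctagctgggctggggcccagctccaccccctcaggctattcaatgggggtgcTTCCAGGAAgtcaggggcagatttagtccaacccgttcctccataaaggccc
Lcn2: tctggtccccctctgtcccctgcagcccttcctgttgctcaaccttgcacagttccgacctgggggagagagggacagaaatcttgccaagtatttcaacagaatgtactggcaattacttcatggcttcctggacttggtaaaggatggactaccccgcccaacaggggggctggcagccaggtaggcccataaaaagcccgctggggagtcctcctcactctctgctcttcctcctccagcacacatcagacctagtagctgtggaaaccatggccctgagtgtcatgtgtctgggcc
In Gfap the match begins 2 bases before the annotated start, and the Lcn2 window holds no match to either motif. The STAT motif was present in 8.3% of all 32851 promoter windows of this length and the NF-kB motif in 4.51%. Windows were searched for 32 of the 37 astrocyte genes, 37 windows in all. The remaining astrocyte genes were not searched, so the lists of genes with matches do not cover them. STAT matches lay in windows of Gfap, Slc1a3, Acsbg1, Ntsr2 and Cxcl14, and NF-kB matches in windows of Vim, Slc7a10, Acsbg1 and Ndrg2. A match in letters does not show binding, and GENCODE also annotates Gfap transcripts that begin further upstream.

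Lcn2, on the minus strand of chromosome 2 from 32384633 to 32388252, was near the limit of detection. Its counts were 7, 5, 31 and 24 in CD and 0, 3 and 2 in KD, or 0.199, 0.167, 0.946 and 0.655 CPM against 0, 0.0882 and 0.0898 CPM. Every KD library was below every CD library, and a level of 3 counts corresponds to 0.0819 to 0.135 CPM, so that the KD values were at or under that floor. Of pooled counts, 5 of KD stood against 67 of CD, a ratio in CPM of 0.126 with a 95% interval of 0.0396 to 0.309 that covers counting error only. When no filter but 1 count was applied, edgeR's quasi-likelihood test gave an adjusted p of 0.923 for Lcn2, with a raw p under 0.05. Within CD, replicates 3 and 4 held more Lcn2 than replicates 1 and 2, and meningeal fibroblast markers were at 130 and 440 CPM in the former and at 72.3 and 78.8 CPM in the latter. KD replicate 3 had 201 CPM of these markers and 0.0898 CPM of Lcn2. CD replicates 3 and 4 were also the CD libraries with high Ddx3y. In mean log2(CPM + 0.5), KD minus CD of Lcn2 was -0.33 among the Xist libraries. It was -1.13 among the Ddx3y libraries, with 1 KD library. Whether sex or cells other than astrocytes had a part in the Lcn2 counts was not tested.

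Vim was at 29.4, 26.2, 26.7 and 53.3 CPM in CD and at 35.1, 23.2 and 24.2 CPM in KD. CD replicate 4 was far above the other libraries, and the log2 difference of -0.28 (SE 0.26) was -0.0019 without it. Cd44 showed the same library more strongly, with 4.62, 5.92, 7.35 and 24.5 CPM in CD and 7.31, 7.23 and 5.48 CPM in KD. Its log2 difference of -0.63 (SE 0.54) became 0.16 without CD replicate 4. Vim and Cd44 are also expressed by fibroblasts and vessel cells, and CD replicate 4 had the most fibroblast markers, 440 CPM. The part of those cells in its Vim and Cd44 counts was not tested.

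Serpina3n was at 24.2, 28.9, 26.2 and 26.0 CPM in CD and at 37.4, 26.7 and 22.8 CPM in KD, so that the KD values lay on both sides of the CD range. Its log2 difference was 0.15 (SE 0.17), -0.08 without KD replicate 1 and 0.30 without KD replicate 3. Osmr, at 10.4 to 14.8 CPM in CD and 12.3 to 15.3 CPM in KD, differed by 0.10 (SE 0.16), and by -0.0088 without KD replicate 1. In KD replicate 1, Gfap, Serpina3n and Osmr were all at their highest of the 7 libraries.

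**Figure D3:**
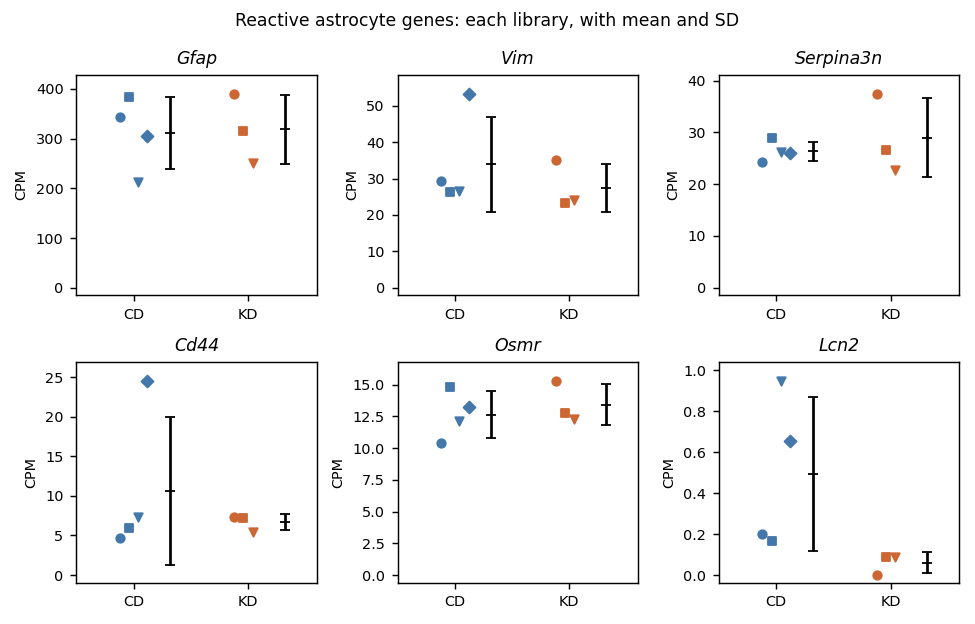
CPM of the 6 reactive astrocyte genes in each library (blue, CD; orange, KD), with the mean and SD of each diet in black; marker shapes give the replicate number and each panel starts near 0 on its own axis. Gfap runs from 213 to 383 CPM in CD and 251 to 390 in KD, CD replicate 4 stands apart for Vim (53.3 CPM) and Cd44 (24.5 CPM), and Lcn2 is under 0.1 CPM in each KD library.

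Of the 4 genes of glutamate and amino acid transport, 2 were fitted higher and 2 lower in KD. Slc1a2 was at 3835, 3603, 3520 and 3689 CPM in CD and at 5183, 3975 and 2869 CPM in KD. The CD libraries were close to each other (3662 ± 135 CPM, SD, n = 4) whereas the KD libraries reached from below the lowest to above the highest CD value (4009 ± 1157 CPM, SD, n = 3). The log2 difference was 0.14 (SE 0.18). It turned to -0.09 without KD replicate 1 and was 0.34 without KD replicate 3. Slc1a3, the second astrocyte glutamate transporter, was much steadier at 632 to 724 CPM in CD and 642 to 768 CPM in KD, with a log2 difference of 0.09 and a 95% interval of -0.11 to 0.28. Glul was at 2278, 2142, 1684 and 2130 CPM in CD and at 2098, 1843 and 1367 CPM in KD, a log2 difference of -0.21 (SE 0.17). It was -0.35 without KD replicate 1 and -0.04 without KD replicate 3. Its lowest value of each diet was in the library with few oligodendrocyte markers, CD replicate 3 and KD replicate 3, and oligodendrocytes also express Glul. All 10 oligodendrocyte markers were fitted lower in KD, with a median of -0.42, none with a raw p under 0.05. The part of that cell type in the Glul counts was not tested. Slc7a10, which exchanges D-serine and glycine, was at 12.5 to 18.0 CPM in CD and 12.9 to 15.1 CPM in KD, a log2 difference of -0.11 (SE 0.14).

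The 2 gap junction genes gave unlike values. Gja1, which encodes connexin 43, was at 168, 128, 138 and 188 CPM in CD and at 161, 143 and 160 CPM in KD, with a log2 difference of 0.01 (SE 0.12, 95% interval -0.28 to 0.29). Gjb6, which encodes connexin 30, was at 56.1, 53.6, 56.7 and 95.8 CPM in CD and at 51.2, 44.3 and 48.4 CPM in KD. All KD values of Gjb6 were below all CD values, a pattern shown in that direction by 2.56% of all genes. The means were 65.6 ± 20.2 CPM in CD (SD, n = 4) and 48.0 ± 3.48 CPM in KD (SD, n = 3). The log2 difference was -0.43 (SE 0.19, 95% interval -0.87 to -0.00035), with a raw p under 0.05 and an adjusted p of 0.979 by edgeR's quasi-likelihood test. CD replicate 4 held much of the difference, which was -0.22 without it. The raw p of Gjb6 stayed under 0.05 when CD replicate 1, 2, 3 or 4 was left out. It was no longer under 0.05 when KD replicate 1, 2 or 3 was left out. With the replicate number as a block, which also leaves out CD replicate 4, the difference was -0.22 and the raw p not under 0.05. Gjb6 lies on the minus strand of chromosome 14, from 57123303 to 57133611 in mm10.

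Water and ion balance held the other gene with a raw p under 0.05. Slc14a1, a urea transporter of the cell surface, was at 17.5, 17.6, 14.5 and 17.8 CPM in CD and at 25.5, 18.9 and 19.6 CPM in KD. All KD values were above all CD values, as for 1.64% of all genes. The means were 16.8 ± 1.56 CPM in CD (SD, n = 4) and 21.3 ± 3.61 CPM in KD (SD, n = 3). The log2 difference was 0.35 (SE 0.14, 95% interval 0.04 to 0.67), with a raw p under 0.05 and an adjusted p of 0.979 by edgeR's quasi-likelihood test. It was 0.20 without KD replicate 1, and its raw p was not under 0.05 without that library or without CD replicate 1, 3 or 4. The direction was the same among the Xist libraries (0.32) and among the Ddx3y libraries (0.28, with 1 KD library).

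Kcnj10, the inward rectifier potassium channel of astrocytes, was at 71.8, 56.8, 51.4 and 56.4 CPM in CD and at 111, 63.7 and 33.6 CPM in KD. Its KD values thus spread on both sides of the CD range, as those of Slc1a2 did. The log2 difference of 0.25 (SE 0.34) turned to -0.27 without KD replicate 1 and was 0.59 without KD replicate 3. Kcnj10 is also expressed by oligodendrocytes, whose markers summed to 4573, 2342 and 1260 CPM in KD replicates 1 to 3, in the order of the Kcnj10 values. In CD replicates 1 to 4 these markers summed to 4652, 4122, 1227 and 4162 CPM, and Kcnj10 ranged less widely there. The part of oligodendrocytes in the spread of Kcnj10 was not tested. Aqp4, the water channel of the endfeet, was at 171 to 237 CPM in CD and 192 to 236 CPM in KD, a log2 difference of 0.11 (SE 0.12). Mlc1, an endfoot membrane protein of volume regulation, differed by -0.01 (SE 0.10), and Hepacam, the adhesion protein that binds it, by -0.19 (SE 0.19). The bicarbonate cotransporter Slc4a4 differed by 0.13 (SE 0.12) and the sodium pump subunit Atp1b2 by 0.16 (SE 0.21). Atp1b2 was highest in CD replicate 4, at 63.7 CPM, and without this library its difference was 0.38. It was 0.04 without CD replicate 2. With the replicate block it was 0.38 (SE 0.09), with its raw p at 0.01 or less and an adjusted p of 0.811 by edgeR's quasi-likelihood test.

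All 4 metabolic enzymes had a fitted difference below 0, none with a raw p under 0.05, and without KD replicate 3 that of Aldh1l1 was above 0. Aldh1a1, which makes retinoic acid, was at 57.1, 49.6, 31.8 and 56.6 CPM in CD and at 38.6, 40.1 and 22.8 CPM in KD. Only CD replicate 3 fell among the KD values. The log2 difference of Aldh1a1 was -0.51 (SE 0.25, 95% interval -1.09 to 0.07), and -0.29 without KD replicate 3. With the replicate block it was -0.46 (SE 0.10), with its raw p at 0.01 or less and an adjusted p of 0.811 by edgeR's quasi-likelihood test. Cbs, which turns homocysteine into cystathionine, was at 11.1 to 20.4 CPM in CD and 10.1 to 13.1 CPM in KD, with a difference of -0.38 (SE 0.20). Acsbg1, an acyl-CoA synthetase that activates long-chain fatty acids, was at 163, 124, 111 and 146 CPM in CD and at 116, 122 and 112 CPM in KD, with a difference of -0.21 (SE 0.13). Aldh1l1, a folate enzyme used as a general astrocyte marker, differed by -0.13 (SE 0.17), and by 0.05 without KD replicate 3.

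The 3 surface receptors were likewise fitted below 0, also without a raw p under 0.05. Fgfr3, a receptor for fibroblast growth factors, was at 104, 91.2, 79.8 and 113 CPM in CD and at 82.3, 84.6 and 69.5 CPM in KD. Again CD replicate 3 was the one CD library among the KD values. The log2 difference of Fgfr3 was -0.28 (SE 0.13, 95% interval -0.58 to 0.01). Ntsr2, a neurotensin receptor, differed by -0.27 (SE 0.16) and F3, tissue factor, by -0.18 (SE 0.13). The transcription regulators gave no common direction: Sox9, which specifies glia, differed by 0.30 (SE 0.21), and the helix-loop-helix inhibitors Id3 and Id4 by -0.33 (SE 0.26) and 0.29 (SE 0.21). Both rested largely on single libraries with olfactory bulb markers: Id3 differed by -0.05 without CD replicate 4 and Id4 by 0.01 without KD replicate 3.

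Among secreted and matrix proteins, Sparcl1 was at 2108 to 2485 CPM in CD and 1936 to 2224 CPM in KD, a log2 difference of -0.11 (SE 0.10). Sparc, a matrix protein that opposes Sparcl1 at synapses, differed by 0.18 (SE 0.18). The glypican Gpc4, which recruits glutamate receptors to young synapses and lies on chromosome X, was at 7.81, 5.99, 10.0 and 12.0 CPM in CD and at 10.1, 6.20 and 24.1 CPM in KD. KD replicate 3 alone was high, and the log2 difference of 0.59 (SE 0.42) became -0.11 without it. The related Gpc5 was steady, with a difference of 0.08 (SE 0.11), and the chemokine Cxcl14 differed by -0.16 (SE 0.11). Of the cytosolic markers, Fabp7, a fatty acid binding protein of immature glia, was at 28.4, 18.9, 33.3 and 54.4 CPM in CD and at 32.9, 28.5 and 62.2 CPM in KD. Both libraries with olfactory bulb markers, CD replicate 4 and KD replicate 3, were the highest for Fabp7, and its difference was 0.30 (SE 0.36). It turned to -0.11 without KD replicate 3 and was 0.60 without CD replicate 4. S100b and Ndrg2 differed by 0.05 (SE 0.22) and -0.01 (SE 0.12).

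**Figure D4:**
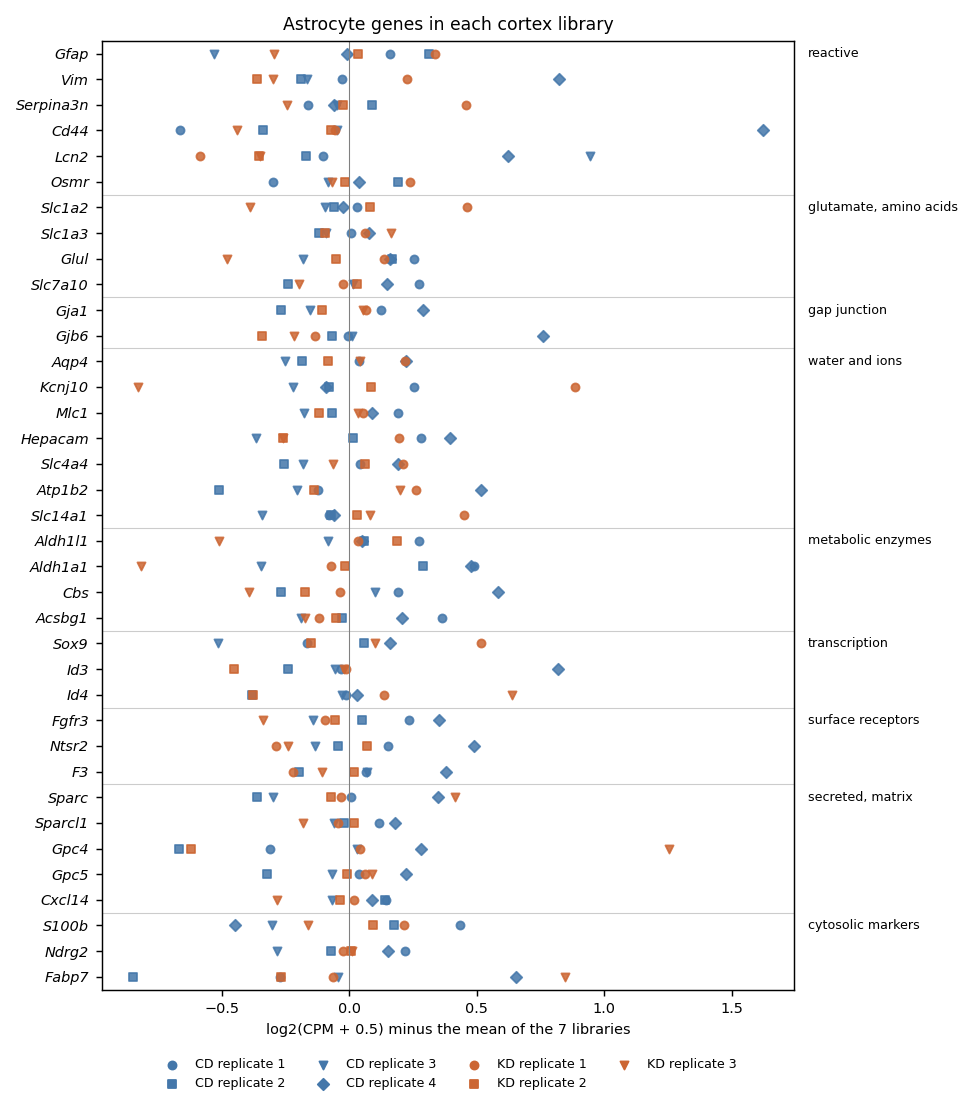
Level of each astrocyte gene in each library as log2(CPM + 0.5) minus the mean of the 7 libraries, with genes grouped by role; blue marks are CD and orange marks KD replicates. CD replicate 4 lies to the right for 30 of the 36 tested genes (59.8% of all genes). CD replicate 3 lies to the left for most, at a median of -0.14 (-0.0034 for all genes).

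Single libraries were high or low for many of the astrocyte genes at once. CD replicate 4 was the highest library for 14 of 36 genes (25.3% of all genes) and above a gene's own mean for 30 (59.8% of all genes). CD replicate 1 was the highest for 9 (12.6% of all genes) and CD replicate 2 for 0 (10.9% of all genes). CD replicate 3 was the highest for 0 (9.65% of all genes) and the lowest for 8 (11.6% of all genes). It was above a gene's own mean for 5 genes (49.1% of all genes). KD replicate 1 was the highest for 8 genes (11.3% of all genes) and KD replicate 2 for 0 (7.39% of all genes). KD replicate 3 was the highest for 5 genes (22.9% of all genes) and the lowest for 10 (18.1% of all genes), while CD replicate 2 was also the lowest for 10 (17.6% of all genes). The median deviation of the astrocyte genes ran from -0.17 in KD replicate 3 to 0.20 in CD replicate 4, where that of all genes was 0.02 and 0.05.

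Related genes were also compared as ratios inside each library, which do not depend on the library's scaling. For 4 libraries against 3 the smallest p that the exact two-sided permutation test can give is 0.0571, so no ratio could pass 0.05. Connexin 30 to connexin 43 (Gjb6/Gja1) was at -1.57, -1.24, -1.28 and -0.97 on the log2 scale in CD and at -1.64, -1.68 and -1.71 in KD. Every KD ratio was below every CD ratio and the KD libraries lay within a narrow span. The difference was -0.41, with the smallest exact permutation p of 0.0571 and 0.171 after Benjamini-Hochberg adjustment over the 6 ratios. Without CD replicate 4 it was -0.31, and without CD replicate 1 it was -0.51. Gjb6 alone already separated the diets, so its ratio is not a second, independent result. Id3/Id4 also separated, with means of -1.54 ± 0.39 in CD (SD, n = 4) and -2.06 ± 0.32 in KD (SD, n = 3). Its difference of -0.52 (exact permutation p = 0.0571, adjusted 0.171) was -0.14 without the libraries with olfactory bulb markers. The other ratios overlapped between diets: Slc1a3/Slc1a2 differed by -0.02, Gpc4/Gpc5 by 0.31, Sparc/Sparcl1 by 0.30 and Vim/Gfap by -0.30, with exact permutation p from 0.286 to 1.

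**Figure D5:**
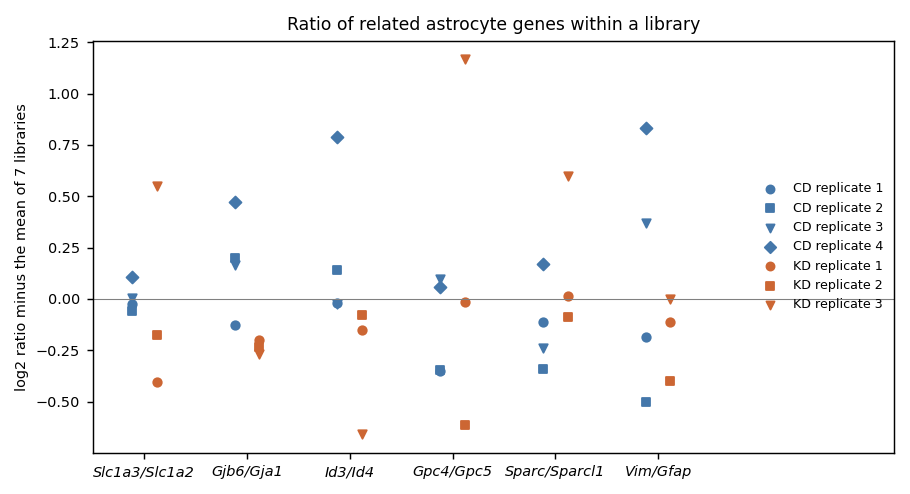
Within-library log2 ratio of 6 pairs of related astrocyte genes, each minus the mean of the 7 libraries; blue marks are CD and orange marks KD replicates. KD lies below CD for Gjb6/Gja1 (difference -0.41) and Id3/Id4 (difference -0.52), and the other 4 ratios overlap.

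Sex was added as a term, from the Xist and Ddx3y levels, after the data were seen. With it, 6 of 36 astrocyte genes had a raw p under 0.05 by edgeR's quasi-likelihood test, or 16.7%, against 7.22% of all genes. None of them had a raw p of at most 0.01 (1.32% of all genes) or an adjusted p under 0.05. Fitted lower in KD were Aldh1a1 (-0.63, SE 0.20), Glul (-0.29, SE 0.11), Fgfr3 (-0.32, SE 0.12) and Cxcl14 (-0.21, SE 0.08). Fitted higher were Slc14a1 (0.32, SE 0.13) and Gpc4 (0.62, SE 0.24). Gjb6 was no longer under 0.05 in this fit. All 6 had adjusted p-values of 0.682 by edgeR's quasi-likelihood test. When the diet difference was taken inside each sex, 25 of the 36 tested genes (69.4%) had the same sign in both, as did 51.8% of all genes. The share was not tested, since the genes are not independent of each other. Kcnj10 was 0.40 among the Xist libraries and -0.67 among the Ddx3y libraries, and Slc1a2 was 0.29 and -0.33. The interaction of sex and diet had a raw p under 0.05 for 4 of 36 genes (Slc1a2, Kcnj10, Aldh1l1 and Cd44), against 8.1% of all genes, and no astrocyte gene had an adjusted interaction p under 0.05, the smallest being 0.562. Only 1 KD library was on the Ddx3y side, so that this library and the sex cannot be told apart there. With the Xist level itself, in log2 CPM, in place of the term, the same 6 genes had a raw p under 0.05 (6.96% of all genes) and none was at 0.01 or less (1.43% of all genes).

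The number of astrocyte genes with a raw p under 0.05 also followed the choice of libraries and filter. It was 4 without both libraries with olfactory bulb markers (Slc1a2, Slc4a4, Atp1b2 and Slc14a1, all fitted higher in KD), against 2.54% of all genes. It was 4 of 37 when every gene with at least 1 count was tested (Lcn2, Gjb6, Slc14a1 and Fgfr3), against 3.02% of all genes. With the replicate number as a block, which leaves out CD replicate 4, it was 5 (5.89% of all genes), and 3 genes were at 0.01 or less (1.16% of all genes): Aldh1a1 (-0.46, SE 0.10), Atp1b2 (0.38, SE 0.09) and Fabp7 (0.56, SE 0.14). The block keeps KD replicate 3, the highest library for Fabp7. None of these fits gave an astrocyte gene an adjusted p under 0.05.

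Other genes of reactive and resting astrocytes, 71 tested in 6 lists, were mostly fitted lower in KD without passing the test. No gene among them had an adjusted p under 0.05 by edgeR's quasi-likelihood test. A raw p under 0.05 was found for 4 (3.19% of all genes). Of these 1, Htra1, was at 0.01 or less (0.321% of all genes). Of the 71 genes, 21 were fitted above 0 (49% of all genes), with a median of -0.10. Of 7 genes induced in every type of reactive astrocyte 2 were fitted higher and 5 lower, with a median of -0.12. Of 11 genes of the A1 list, those induced by inflammation, 2 were higher and 9 lower, with a median of -0.22. Iigp1, an interferon-induced GTPase of that list, was lower in every KD library than in every CD library, as were 2.56% of all genes. It differed by -0.55 on the log2 scale, with an adjusted p of 0.979 by edgeR's quasi-likelihood test. Of 9 tested genes of the A2 list, induced by ischaemia, 2 were higher and 7 lower. CD replicate 4 stood apart for the summed A1 list, and without this library 33 of 71 genes were fitted above 0. Without both libraries with olfactory bulb markers, 38 were.

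The gp130 and STAT3 list, the receptors, kinases and inhibitor through which Osmr and related cytokines signal, had 3 genes higher and 6 lower, with a median of -0.10 and no raw p under 0.05. Stat3 itself differed by 0.10. The endfoot complex, which anchors Aqp4 and Kcnj10 to the vessel wall, had 3 genes higher and 4 lower, with a median of -0.04. Among 28 other genes enriched in astrocytes, 9 were higher and 19 lower, and 3 had a raw p under 0.05, all lower in KD. Htra1, a secreted serine protease, was at 170, 179, 155 and 162 CPM in CD and at 133, 141 and 122 CPM in KD. Every KD library was below every CD library, as for 2.56% of all genes. The log2 difference of Htra1 was -0.32 (SE 0.10), with an adjusted p of 0.979 by edgeR's quasi-likelihood test. Mt2 was at 25.8, 27.4, 11.6 and 26.8 CPM in CD and at 10.5, 14.3 and 10.6 CPM in KD, with CD replicate 3 among the KD values. The metallothionein genes Mt2 and Mt1, which bind zinc and respond to glucocorticoids, differed by -0.95 (SE 0.29) and -0.67 (SE 0.26), both with an adjusted p of 0.979 in the same quasi-likelihood test of edgeR.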

How the data were processed

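RNA from frozen cortex of 7 APP/PS1 mice was sequenced as stranded total RNA libraries. The authors checked reads with FASTQC, aligned them to mm10 with STAR and counted reads per gene symbol with the HTSeq method built into STAR. They deposited raw counts, without normalization, and the tool versions, annotation and strand setting are not given in the sources used here. Samples were grouped by their labels.

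The 37 genes and the other lists were chosen with earlier results of these data known. Etnppl and Plpp3 were matched by older symbols. KD was compared with CD by edgeR 4.0.16 in R 4.3.3 (filterByExpr, TMM, robust glmQLFit, glmQLFTest, no covariate), with Benjamini-Hochberg adjustment over 15881 genes. The study names edgeR, TMM and the raw threshold of 0.01. CPM used library totals. Ratios used log2(CPM + 0.5) and exact two-sided permutation over 35 splits. The floor is 3 counts. Exon lengths came from GENCODE M21 and promoters from RefSeq. All 37 genes are named, and from other lists the genes with a raw p under 0.05, with Stat3 as a listed example. Neuron, oligodendrocyte, fibroblast and olfactory bulb markers were summed per library. The procedure was tested on simulated counts. Alternatives were RLE, upper-quartile and library-size scaling, other filters, DESeq2 1.42.0, the likelihood-ratio test, limma-voom (limma 3.58.1), an Xist covariate, a replicate block, other offsets, leaving out each library and, after the data were seen, a sex term and leaving out both libraries with olfactory bulb markers. Replicate counts differed beyond sampling noise (chi-square per gene 15.8 to 68.5).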

Additional observations from a re-analysis of the deposited data

Results flagged for a closer look

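Within the 4 CD libraries, 7 of 66 values had 1 library far from the others, where chance gives about 3.3. CD replicate 4 was high for Vim, at 5.75 in log2 CPM against 4.74 to 4.90 in the other CD libraries, and for Gjb6, at 6.59 against 5.76 to 5.84. It was also high for the summed A1 list, at 7.55 in log2 CPM against 6.91, and for the summed gp130 and STAT3 list, at 10.04 against 9.88 to 9.89. CD replicate 3 was low for Slc14a1, at 3.91 against 4.17 to 4.19, and for the summed oligodendrocyte markers, at 10.26 against 12.01 to 12.18. CD replicate 2 was low for Id4, at 5.02 against 5.37 to 5.43.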

How the results depend on the processing

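No astrocyte gene had an adjusted p under 0.05 in any of the fits run, by edgeR, DESeq2 or limma-voom. The count of astrocyte genes with a raw p under 0.05, which was 2, was 1 with RLE, upper-quartile or library-size scaling, with at least 1 CPM in 3 libraries and with limma-voom, where Gjb6 was lost each time. In these fits 2.83% to 3.24% of all genes had a raw p under 0.05. The count was 4 with every gene of at least 1 count, which added Lcn2 and Fgfr3, 6 with the Xist covariate, 6 with the sex term and 4 without both libraries with olfactory bulb markers. Leaving out 1 library gave 1 to 5. The count was 1 without CD replicate 1 or KD replicate 1, 4 without CD replicate 3 or KD replicate 3 and 5 without KD replicate 2. The share of all genes was 1.63% without CD replicate 1 and 4.01% without KD replicate 1. It was 7.38% without CD replicate 3, 2.22% without KD replicate 3 and 4.56% without KD replicate 2. When any KD replicate was left out, the count includes Lcn2, which passed the filter there only through its CD counts. Of the 36 genes alone the count was 0, 4 and 3 without KD replicate 1, 2 and 3. The number of the 36 fitted higher was 12 without KD replicate 1 and at most 20 (without CD replicate 1), and the median ran from -0.13 to 0.05. Of the other astrocyte genes, the 4 with a raw p under 0.05 were 2 with limma-voom, 1 without both libraries with olfactory bulb markers and 2 to 5 without 1 library. The 21 fitted higher were 33 under the replicate block, 38 without both libraries with olfactory bulb markers and 18 to 33 without 1 library, the last without CD replicate 4. Id3/Id4 was -0.14 without both libraries with olfactory bulb markers. Where the cause is not part of the setting itself, the cause was not tested.

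Same-numbered libraries deviated together weakly (correlations across genes of 0.25, 0.19 and 0.098 on the scale of the test, 0.31, 0.23 and 0.13 in CPM), and no label ties the numbers to a litter or batch. All 3 are over 0.1 on the second scale but not on the first, so that the numbers were not taken as pairs and the blocked values stand beside the genes they move. The replicate block, which leaves out CD replicate 4, gave 5 genes with a raw p under 0.05 (5.89% of all genes) and 3 with at most 0.01 (1.16% of all genes), Aldh1a1, Atp1b2 and Fabp7. Low counts limit Lcn2, and 4 mice against 3 limit the rest.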
